A study of Homo sapiens with 2 samples.

Results

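The S100 calcium-binding proteins described here are the products of 10 genes, S100A2, S100A4, S100A6, S100A7, S100A8, S100A9, S100A10, S100A11, S100A14 and S100A16. Their members were the 13 probe sets that the platform annotation assigns to 1 of these genes alone, out of 54613 probe sets that are not controls. A probe set is a group of short array oligonucleotides that together read 1 transcript. Gene expression was measured in Ca9-22, an established line from a human gingival carcinoma. One group carried an empty vector and the other a vector for RUNX2, a runt-domain transcription factor. Both groups were transduced and then selected with blasticidin for 2 weeks. Whether each line was 1 clone or a pool of cells is not given in the sources used here, and neither is the promoter of the vector. With 1 array for each line, differences have no replicate check, nothing was tested and no p-value is given. That number of arrays is what limits precision, and differences are described by size alone.

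The RUNX2 probe sets do not settle which array came from which cells. Of 6 probe sets for RUNX2, 3 were measured. Probe set 216994_s_at read 204 with the empty vector and 854 on the array labelled RUNX2, and 221282_x_at read 102 and 353. Probe set 232231_at went the other way, from 1746 to 433. Every direction given here therefore rests on the labels.

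S100 proteins are small proteins with paired EF-hand loops, the helix-loop-helix folds that bind calcium. Most form dimers and expose a hydrophobic face for a partner protein when calcium is bound. Most of the genes lie in a cluster on chromosome 1 beside the genes of the cornified envelope. In stratified epithelium several of them are abundant, and S100A7, S100A8 and S100A9 are known as alarmins, induced in wounded or inflamed skin and mucosa. S100A8 and S100A9 together form calprotectin, which withholds zinc and manganese from microbes.

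The bases just before the transcription start are shown for 5 of these genes, because S100A8 and S100A9 encode the paired subunits of calprotectin but differed in their ratios, S100A4 and S100A7 share a sequence element with them, and S100A11 had the next widest ratio after S100A8 when each gene is read by its brightest probe set. Each line gives the 150 bases before a RefSeq start on build GRCh38.p14, read 5′ to 3′ on the strand of the gene. Capitals mark the RUNX core TGTGGT, or ACCACA where it lies on the opposite strand, and the TATA element TATAAA. For S100A8 the table holds 3 starts, and the sequence is that of the second (chr1:153391074-153391223, minus strand). The others lie at chr1:153357704-153357853, plus strand (S100A9), chr1:153545807-153545956, minus strand (S100A4), chr1:153460652-153460801, minus strand (S100A7), and chr1:152037005-152037154, minus strand (S100A11).
S100A8: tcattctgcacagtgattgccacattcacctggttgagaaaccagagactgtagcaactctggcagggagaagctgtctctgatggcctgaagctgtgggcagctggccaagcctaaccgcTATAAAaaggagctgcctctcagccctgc
S100A9: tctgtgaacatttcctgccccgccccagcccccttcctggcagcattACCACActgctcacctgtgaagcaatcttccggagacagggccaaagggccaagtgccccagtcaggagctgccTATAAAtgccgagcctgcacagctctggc
S100A4: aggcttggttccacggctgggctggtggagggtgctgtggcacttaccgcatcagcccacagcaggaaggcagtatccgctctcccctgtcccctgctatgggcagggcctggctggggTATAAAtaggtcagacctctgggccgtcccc
S100A7: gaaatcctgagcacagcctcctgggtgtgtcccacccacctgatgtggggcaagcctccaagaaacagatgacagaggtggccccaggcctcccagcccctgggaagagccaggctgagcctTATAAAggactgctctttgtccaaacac
S100A11: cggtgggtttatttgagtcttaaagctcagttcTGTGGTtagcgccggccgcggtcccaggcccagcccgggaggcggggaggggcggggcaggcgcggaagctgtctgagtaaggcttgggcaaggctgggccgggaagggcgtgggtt

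All 10 genes matched the RefSeq promoter table, with 14 windows. Both motifs were searched on both strands over the 250 bases before each start, and the motifs do not overlap. TGTGGT or its complement was in 3 of the 14 windows and in 1 of 12 windows of other S100 genes. Of all 35116 windows of the same length, 11% hold it. Among the members it began 103 bases before the start in S100A9 and 117 bases before it in S100A11. It was also in 1 of 2 windows of S100A2, beginning 154 bases before that start. None of the 3 windows of S100A8 holds these letters, which says only that they are not in these windows. TATAAA or its complement was in 5 of the 14 windows, in 6 of 12 windows of other S100 genes and in 10.7% of all windows, so it is not particular to the members. On the strand of the gene it began 29 bases before the start in S100A8 and in S100A9, 28 in S100A7 and 31 in S100A4. In another window of S100A8 the same element lies 126 bases before a start further downstream, since these windows overlap. Of the members with this element, S100A8 had a log2 ratio of 2.26, S100A9 0.00 and S100A4 0.14, and S100A7 gave no ratio. TATAAA was chosen for the search after the sequences had been read.

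Among the alarmins, S100A8 was much higher on the array labelled RUNX2, S100A9 read almost the same on both arrays, and S100A7 was not measured on either. S100A8 read 57.2 with the empty vector and 273 on the array labelled RUNX2 in probe set 202917_s_at, in arbitrary units after scaling the arrays to equal trimmed means. This was 4.78-fold higher, a log2 ratio of 2.26. A floor was set at the median level, which was 55.3 with the empty vector and 51.8 on the array labelled RUNX2. A gene was called measured if 1 of its probe sets exceeded the floor on at least 1 array, and the brightest such probe set stood for the gene. The empty vector level of S100A8 was 1.03 times the floor, and the level on the array labelled RUNX2 was 5.27 times its floor. The second probe set of S100A8, 214370_at, was under the floor on both arrays, at 13.4 and 14.8, and gave no ratio. S100A8 thus rests on a single probe set, whose ID ends in _s_at, the suffix for probe sets that can match more than 1 transcript.

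S100A9, the partner of S100A8 in calprotectin, had levels of 109 on both arrays in its single probe set. These were 1.96 times the floor with the empty vector and 2.10 times the floor on the array labelled RUNX2. The log2 ratio of S100A9 was 0.00, and it lay just under 0 (-0.03) when an offset replaced the floor. S100A9 was not measured under the highest floor tried. The log2 ratios of the subunit genes differed by 2.25. For comparison, the SD of log2 ratios between probe sets of the same gene was 0.29, taken over the 6165 genes that had at least 2 measured. This SD is a technical spread within these arrays and no replicate error. It is of single ratios, and a difference between 2 ratios spreads more widely. S100A7, which encodes psoriasin, read 19.6 and 25.8 in its single probe set, under the floor on both arrays. No ratio is given for it. The RefSeq gene table lists 3 pseudogenes named for S100A7, and whether the probes match them was not tested.

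**Figure D1:**
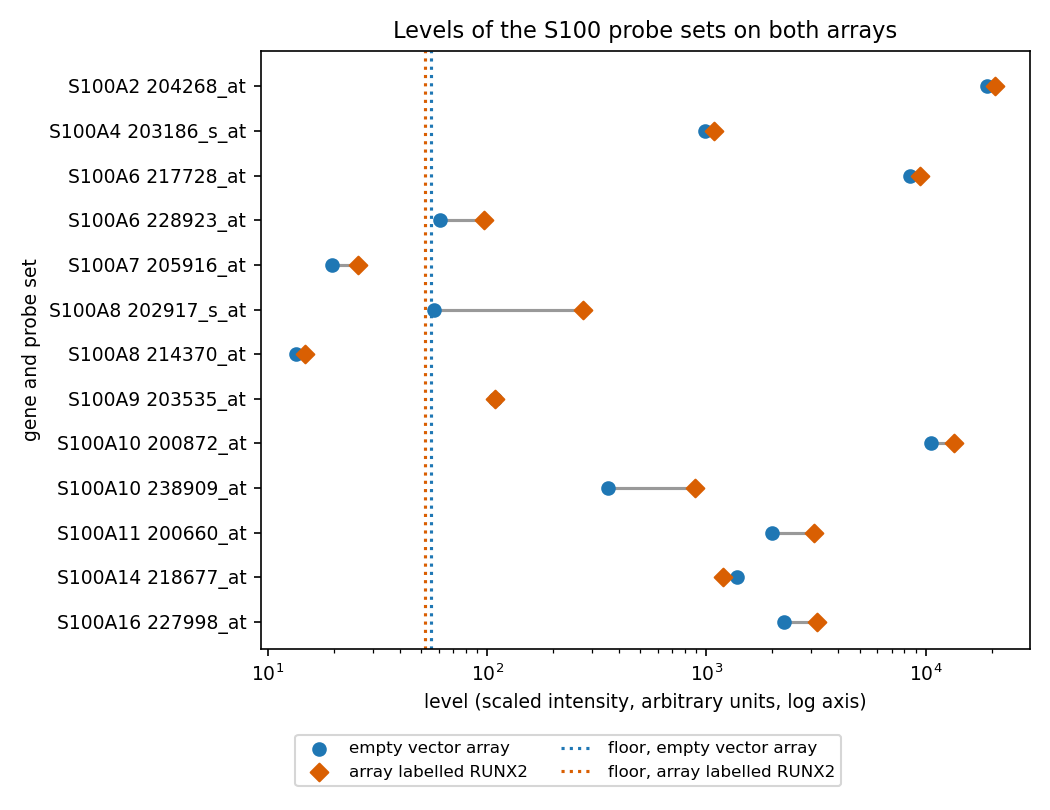
Level of each of the 13 S100 probe sets with the empty vector (circles) and on the array labelled RUNX2 (diamonds), in arbitrary units on a log axis, with dotted lines at the floor of each array (55.3 and 51.8). Probe set 202917_s_at of S100A8 runs from 57.2 to 273, S100A7 and the second S100A8 probe set lie under the floor on both arrays, and positions of different probe sets along the axis are not comparable.

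S100A10, S100A11 and S100A6, which are known for binding annexins at membranes, all read higher on the array labelled RUNX2, by less than 2-fold in their brightest probe sets. S100A11 was the widest of them, with levels of 1986 and 3094, a log2 ratio of 0.64 and a fold of 1.56. Its gene has 10 pseudogenes in the RefSeq gene table, and whether the probe set reads any of them was not tested. S100A10, also called p11, forms a heterotetramer with annexin A2 that binds plasminogen and tissue plasminogen activator at the cell surface. Its brighter probe set, 200872_at, had levels of 10536 and 13485, a log2 ratio of 0.36. Its dimmer probe set, 238909_at, had levels of 355 and 883, a log2 ratio of 1.32 and a fold of 2.49. The probe sets of S100A10 went the same way but differed by 0.96 on the log2 scale, and their mean was 0.84.

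S100A6, or calcyclin, showed the same arrangement. Its brighter probe set, 217728_at, had levels of 8485 and 9403, a log2 ratio of 0.15. Its dimmer probe set, 228923_at, had 60.8 and 96.9, a log2 ratio of 0.67, with the empty vector level at 1.10 times the floor. S100A10 and S100A6 were the 2 members with more than 1 measured probe set, and in each the dimmer probe set had the wider ratio. For both genes the gap between probe sets (0.96 and 0.52) was wider than the SD of 0.29 between probe sets of the same gene. That SD is of single ratios, and a gap between 2 ratios spreads more widely, so neither gap is called unusual.

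The remaining members, S100A2, S100A4, S100A14 and S100A16, each had 1 probe set, and none differed by 2-fold. S100A2, a p53 and p63 target of basal squamous cells, had levels of 19123 and 20674, a log2 ratio of 0.11. S100A4, also called metastasin and used as a fibroblast marker, had levels of 981 and 1079, a log2 ratio of 0.14. The log2 ratios of both lay within 1 SD (0.29) of 0. S100A16, a widely expressed member, had levels of 2248 and 3184, a log2 ratio of 0.50 and a fold of 1.42. S100A14, a member found mainly in epithelial cells, was the only one of the 9 measured members to read lower on the array labelled RUNX2. It had levels of 1379 and 1189, a log2 ratio of -0.21, which is also within 1 SD of 0. It lay below 0 under all 10 other ways of scaling, flooring or summarising that were tried.

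Of the 9 measured members, 1 was at least 2-fold higher (S100A8) and 0 were at least 2-fold lower. The S100A8 call was lost with the floor at the 75th percentile, where its log2 ratio was a bound of 0.47, and without probe sets ending in _x_at or _s_at, and its log2 ratio was 1.53 when an offset replaced the floor. Over all 12729 measured genes, 1.42% were at least 2-fold higher (181 genes) and 1.47% at least 2-fold lower (187 genes). With the arrays scaled to equal medians the split was 230 higher and 137 lower. By probe set, 2 of the 11 measured S100 probe sets were at least 2-fold higher, 202917_s_at of S100A8 and 238909_at of S100A10, beside 1.64% of all 23332 measured probe sets with 1 gene. None of the 11 was at least 2-fold lower, beside 1.12%. The members had a median log2 ratio of 0.15, and the median of all measured genes was -0.06. The ratio lay above 0 for 8 of the 9 members and for 42.7% of all measured genes. These counts describe 1 pair of arrays, and with so few members nothing particular to the family is read from them.

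Single members can be placed among all measured genes. S100A8 ranked 13 from the highest of 12729, and its ratio exceeded those of all 500 genes nearest to it in level, of which the central 95% ran from -1.22 to 0.85. S100A11 ranked 27 from the highest among itself and its 500 nearest genes, and S100A16 ranked 44, both inside the central 95% (upper limits of 0.79). S100A9 ranked 178 and S100A14 ranked 369 among theirs. The 4 genes measured above the floor on both arrays whose log2 ratio was closest to that of S100A8, over these 2 arrays, were INHBA (2.29), IFIT3 (2.21), MIR3682 (2.18) and RIGI (2.33). MIR3682 is a microRNA gene symbol, and which transcript its probe set reads was not tested.

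**Figure D2:**
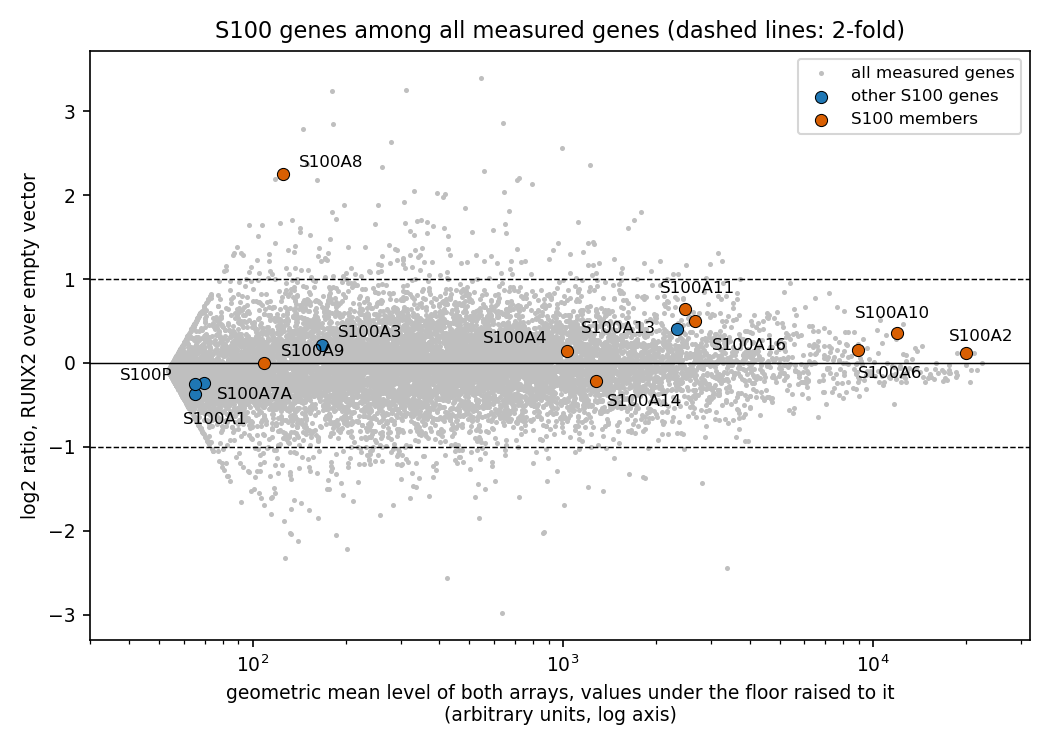
Log2 ratio of the array labelled RUNX2 over the empty vector array against the geometric mean level of both arrays (log axis), for all 12729 measured genes (grey), the 9 measured S100 members (orange) and 5 other measured S100 genes (blue), with dashed lines at 2-fold. S100A8 stands at 2.26, above its neighbours in level, and every other S100 gene lies between the dashed lines.

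Of the S100 genes outside this set, 10 were named alone by a probe set and 5 were measured, with a median log2 ratio of -0.23. None differed by 2-fold. S100A13, which takes part in the release of proteins without a signal peptide, had levels of 2029 and 2688, a log2 ratio of 0.41, and -0.01 in another probe set near the floor (63.0 and 62.6). S100A3, a protein of the hair cuticle, had 155 and 180, a log2 ratio of 0.21. S100A1, known from heart and muscle, had 74.3 and 57.3, a log2 ratio of -0.38. S100P had 71.1 and 59.8 (-0.25), and S100A7A, or koebnerisin, had 75.6 and 64.3 (-0.23). These last 3 genes lay at no more than 1.37 times the floor on either array. S100A5, S100A12, S100B, S100G and S100Z were under the floor on both arrays. S100A12 is the third calgranulin beside S100A8 and S100A9, and it read 16.4 and 14.1. S100A7L2 had no probe set of its own.

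Along the chromosome, in the gene order of the RefSeq table, 63 protein-coding genes run from S100A10 to S100A1, 16 of them S100 genes. Of these 63, 25 were measured, 13 of them S100 genes, and S100A8 and the cornified envelope gene SPRR1B were the 2 at least 2-fold higher (1.42% of all genes). None of the 25 was at least 2-fold lower (1.47% of all genes). S100A8 stood alone among its near neighbours, with S100A9 at 0.00 on one side and S100A7A at -0.23 on the other, while S100A12 and S100A7 were not measured. In the RefSeq gene table the whole span of S100A8, over all its transcripts, overlaps that of S100A7A, and whether a probe matches both was not tested. In contrast, the 4 measured genes S100A6, S100A4, S100A3 and S100A2, which follow each other with S100A5 unmeasured between them, had log2 ratios from 0.11 to 0.21. Beyond them S100A16 (0.50) and S100A14 (-0.21), which are adjacent, went opposite ways. S100A10 and S100A11, at the far end of the complex, were both above 0, at 0.36 and 0.64.

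**Figure D3:**
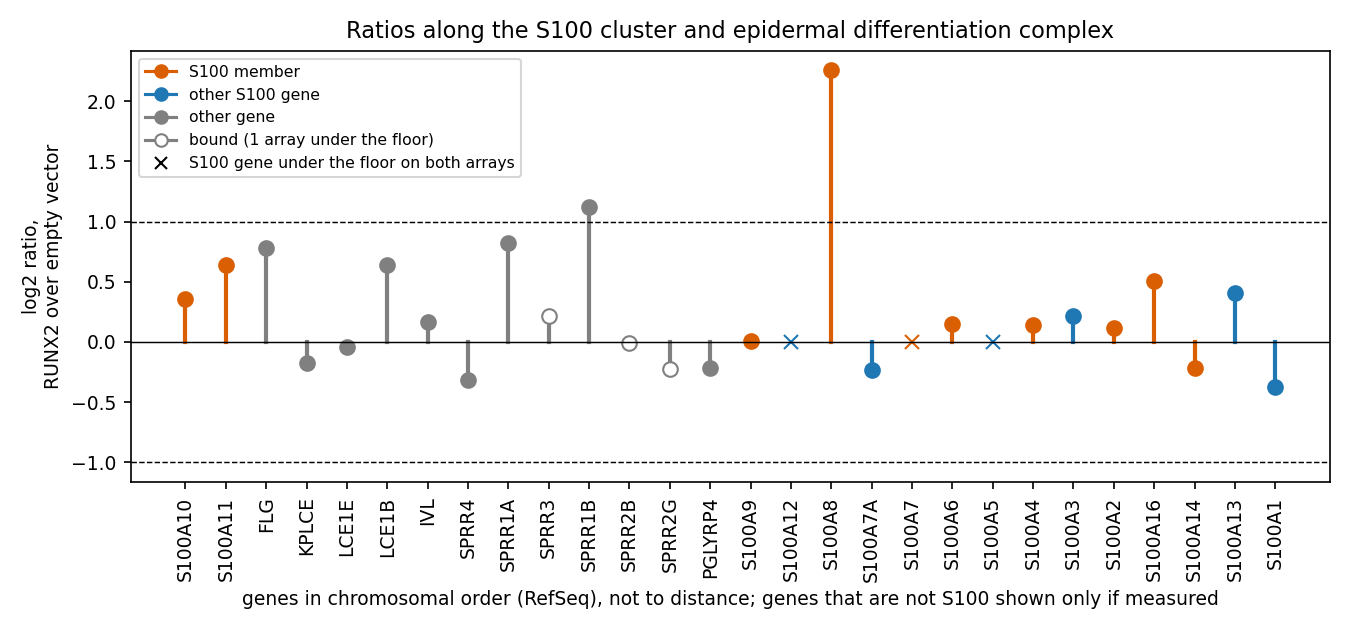
Log2 ratio of the array labelled RUNX2 over the empty vector array for the S100 genes and the other measured genes between S100A10 and S100A1, in chromosomal order and not to distance, with open circles for bounds and crosses for S100 genes under the floor on both arrays. S100A8 (2.26) and SPRR1B (1.12) pass the dashed line at 2-fold, and the genes next to S100A8 do not.

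The S100-fused proteins, which join an S100 domain to long repeats, and the cornified envelope genes between them had 11 measured of 19 genes with a probe set. Of these, 1 was at least 2-fold higher (1.42% of all genes) and 0 were at least 2-fold lower, with a median log2 ratio of 0.17. SPRR1B, a cross-linked envelope protein, had 1.12, from 456 to 995, and SPRR1A had 0.82. FLG, the S100-fused protein filaggrin, had levels of 239 and 410 (0.78), and LCE1B had 0.64. SPRR4 was lowest, at -0.32. The fused genes FLG2, TCHH, RPTN and CRNN were under the floor on both arrays.

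Among receptors and binding partners of S100 proteins, 14 of 18 genes with a probe set were measured, with 0 at least 2-fold higher, 1 at least 2-fold lower (1.47% of all genes) and a median of -0.01. The lower one was PLAT, the tissue plasminogen activator that S100A10 binds, with levels of 508 and 223 and a log2 ratio of -1.19. ANXA2, the annexin partner of S100A10, had levels of 15936 and 15898, a log2 ratio of -0.00, and 0.01 and 0.02 in 2 further probe sets. ANXA1, a partner of S100A11, had 0.47 and 0.85 in its probe sets. CACYBP, the calcyclin-binding protein named for S100A6, had 0.62, with 0.70 and 0.21 in others. BSG, a receptor for S100A9, had -0.35. AGER, the RAGE receptor of several S100 proteins, had 77.8 and 69.8 (-0.16), and TLR4, a receptor for S100A8, was under the floor on both arrays (4.47 and 5.23). ANXA2, AGER and TLR4 were named after their values were seen.

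Transcription factors tied to S100 genes in the literature had 8 measured genes, of which 1 was at least 2-fold higher (1.42% of all genes) and 0 lower (1.47%), with a median of 0.43. KLF4, a factor of barrier formation, had levels of 772 and 2055, a log2 ratio of 1.41, and 1.52 in another probe set. CEBPD and CEBPB, members of the C/EBP family that activates S100A8 and S100A9 in myeloid cells, had 0.65 and 0.56. NFKB1 had 0.65 and STAT3 had -0.21. Of 13 cytokines known to induce S100A7, S100A8 or S100A9 in keratinocytes, 4 were measured, with 1 at least 2-fold higher (1.42% of all genes), 0 lower (1.47%) and a median of -0.06. IL36G read 30.6 with the empty vector, under the floor, and 381 on the array labelled RUNX2, so it was at least 6.90-fold higher. It counted as measured only through the array labelled RUNX2, so the counts and the median of the cytokine list depend on that filter. IL1B had levels of 3894 and 2104 (-0.89), OSM had -0.19 and IL1A 0.07, and the remaining 9, IL17A, IL22 and TNF among them, were under the floor on both arrays.

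Other epithelial antimicrobial genes had 5 measured of 8 with a probe set, with 1 at least 2-fold higher (1.42% of all genes), 0 lower (1.47%) and a median of 0.52. SLPI, a secreted protease inhibitor, had levels of 1660 and 3738, a log2 ratio of 1.17. RNASE7 (22.8 and 81.7) and PI3 (48.2 and 79.2) were under the floor on the empty vector array, so their ratios, 0.56 and 0.52, are bounds. Both counted as measured only through the array labelled RUNX2. The median of the list is the PI3 value, so it is a bound as well and depends on that filter. PGLYRP1 had -0.39. LCN2, DEFB1 and LTF were under the floor on both arrays. Among other EF-hand genes, 10 of 13 were measured, with 1 at least 2-fold higher (1.42% of all genes), 0 lower (1.47%) and a median of 0.10. The higher one was CALB1, which encodes the calcium buffer calbindin, with levels of 364 and 847, a log2 ratio of 1.22 and 1.36 in another probe set. CALU had -0.45, with 4 other probe sets from -0.17 to 0.31, CAPN2 had -0.41, with -0.54 in another probe set, and PDCD6 had 0.32, with -0.10 and -0.27 in others.

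**Figure D4:**
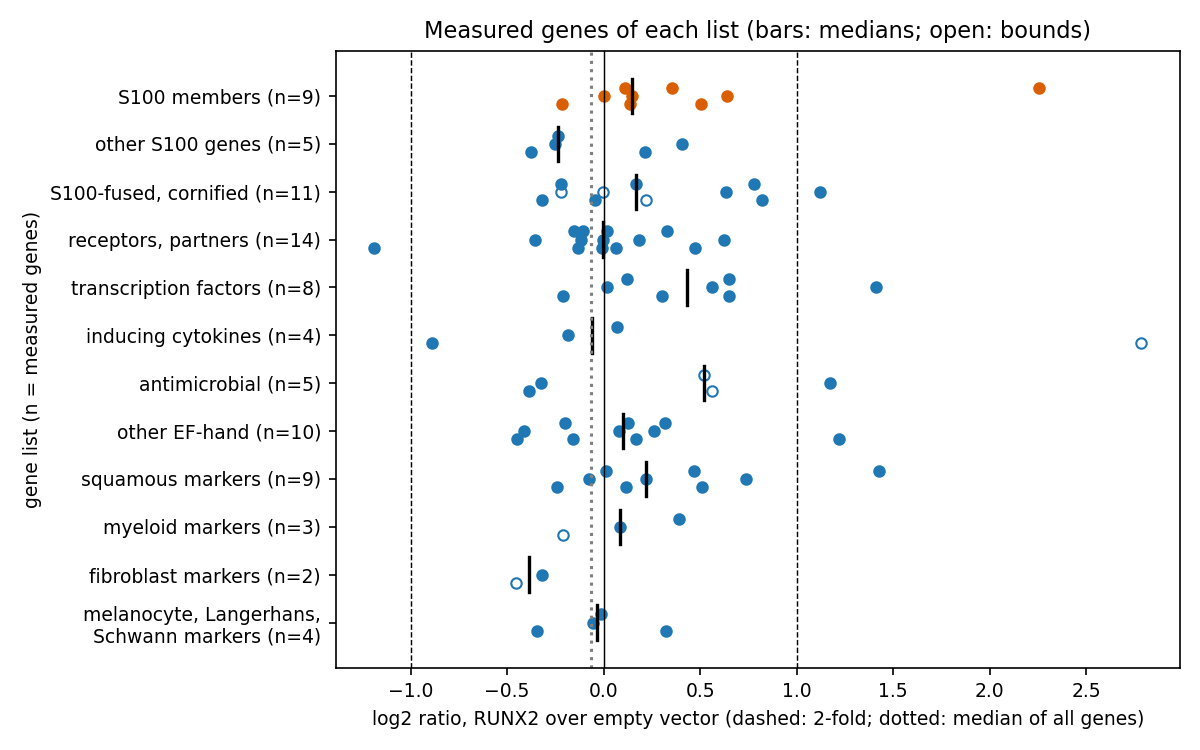
Log2 ratio of the array labelled RUNX2 over the empty vector array for each measured gene of the 8 gene lists and 4 marker lists, with bars at the medians, open circles for bounds, dashed lines at 2-fold and a dotted line at the median of all genes (-0.06). S100A8 (2.26) lies apart from the other S100 members, which run from -0.21 to 0.64.

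Markers of myeloid cells and of fibroblasts, which also make S100 proteins, were mostly under the floor. For scale, 12729 of the 19775 genes named alone by a probe set were measured. S100A8 and S100A9 are abundant in neutrophils and monocytes. Of 13 myeloid markers with a probe set, 3 were measured. Their log2 ratios were -0.21 for ITGAM, a bound, 0.08 for CD53 (63.3 and 67.1) and 0.39 for LAPTM5 (71.2 and 93.4). The other myeloid markers, PTPRC, CD14, MPO, ELANE, CSF3R and FCGR3B among them, were under the floor on both arrays. The levels of the list summed to 416 with the empty vector and to 398 on the array labelled RUNX2. Of 10 fibroblast markers 2 were measured, COL1A1 (1937 and 1553, a log2 ratio of -0.32) and THY1 (-0.45, a bound, with -0.15 in another probe set). The summed level was 2205 and 1800, and most of it was the brightest of 5 measured COL1A1 probe sets. The others of COL1A1 read at most 200 and 152, with log2 ratios from -0.39 to -0.20, so the sum says little about the list. Of 7 markers of melanocytes, Langerhans cells and Schwann cells 4 were measured, from -0.34 to 0.32, with a summed level of 385 and 391. All 9 squamous markers with a probe set were measured, 7 of them above 0 and 2 below, with a median of 0.22. KRT14 (1.43) was the 1 at least 2-fold higher (1.42% of all genes). Those below 0 were PKP1 (-0.24, with 0.44 in another probe set) and DSG3 (-0.08, with -0.05). The summed level was 36777 and 46307. Its brightest genes were SFN (10612.5 and 14689.5) and KRT5 (8842 and 12580), so the sum says little about the other markers. What part the squamous markers have in the S100 values was not tested. In these samples fewer cells of a type and less RNA per cell cannot be told apart.

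The ratios of 6 members moved little with the processing. Under 10 other ways of scaling, flooring or summarising, S100A11 stayed between 0.62 and 0.73, S100A16 between 0.49 and 0.59, S100A2 between 0.11 and 0.20 and S100A14 between -0.23 and -0.12. S100A9 stayed between -0.03 and 0.10 and S100A4 between 0.12 and 0.23 in the 9 settings that measured each. S100A6 reached 0.41 and S100A10 0.84 when probe sets were averaged. S100A8 depended most on the floor, with 1.53 for the offset and 0.47 for the higher floor. In the 7 other settings that measured S100A8 it was between 2.26 and 2.35. Without probe sets ending in _x_at or _s_at, neither S100A8 nor S100A4 had a measured probe set.

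**Figure D5:**
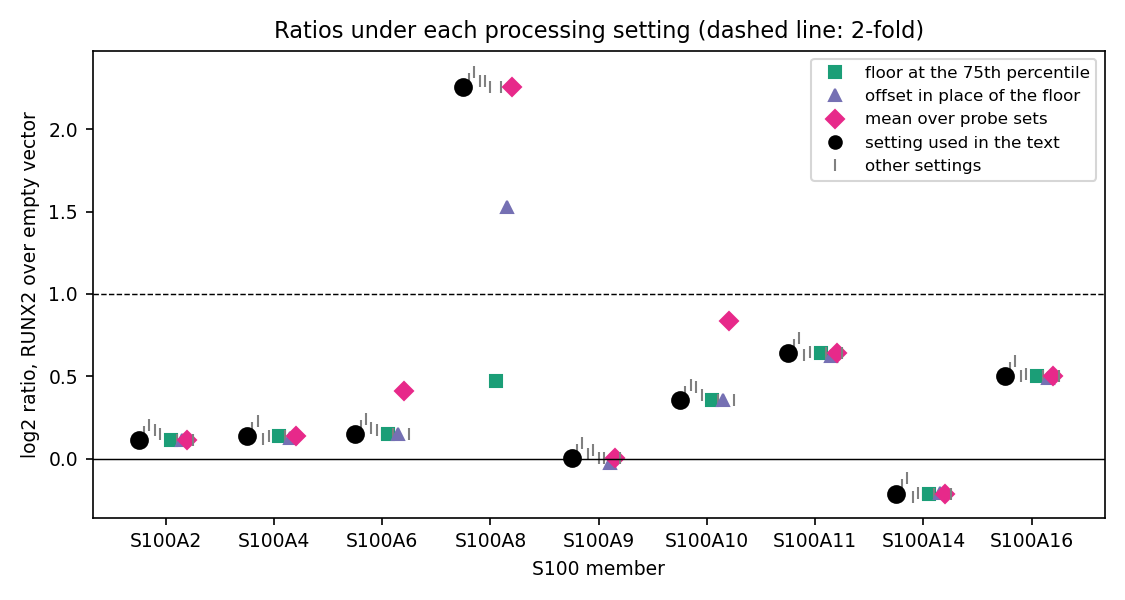
Log2 ratio of each measured S100 member under the setting used in the text (black circles) and under each of the 10 other settings, with squares for the floor at the 75th percentile, triangles for the offset and diamonds for the mean over probe sets. S100A8 falls from 2.26 to 1.53 with the offset and to 0.47 with the higher floor, and S100A10 reaches 0.84 with the mean over probe sets.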

How the data were processed

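Total RNA (6 ug per array) was labelled as biotinylated cRNA and hybridised to Affymetrix arrays, per the labels' protocols. The authors deposited 1 linear intensity per probe set and array, and the submitters' processing notes name MAS5, with no version or scaling target. The deposited values had 2% trimmed means of 199 and 206, and how they were scaled is not given in the sources used here. The 62 control probe sets were left out, and a factor of 0.966 on the array labelled RUNX2 brought the trimmed means together. Values under the floor were raised to it, and such a ratio is a bound. Log2 ratios are RUNX2 over empty vector.

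Symbols came from the platform annotation, updated by Entrez ID through RefSeq (GRCh38.p14). 41091 probe sets had 1 symbol, 1801 several and 11721 none. Levels of different probe sets were not read as relative abundance. They served to choose the brightest probe set of a gene, to find the 500 genes nearest in level and to sum marker lists. The sums took the highest level of each gene on each array, also where it was under the floor. The S100 members, the 8 gene lists and 4 marker lists were chosen with earlier results of these data known. All S100 genes were named. From other lists the 4 widest ratios, and the widest the other way, were named. No test was possible with 1 array per group. Scripts (Python 3.11.15, pandas 2.3.3, statsmodels 0.14.6) were tested on simulated data. Alternatives were 3 other scalings and the deposited scale, 4 other treatments of the floor, 2 other choices of probe set, and thresholds of 1.5-fold and 4-fold.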

Additional observations from a re-analysis of the deposited data

How the results depend on the processing

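Of the counts and the median that summarise the S100 members and all genes, the S100 median stayed between 0.15 and 0.41, and the count of members at least 2-fold lower was 0 throughout. With the floor at the 75th percentile, 0 members were at least 2-fold higher, and over all genes 112 were higher and 79 lower. An offset in place of the floor left S100A8 as the 1 higher member, and 114 genes were higher and 91 lower. Without probe sets ending in _x_at or _s_at, 0 members were higher. At 1.5-fold, 2 members were higher (S100A8 and S100A11), and 735 genes were higher and 876 lower. At 4-fold, 22 genes were higher and 11 lower, with S100A8 among the higher. Both losses of the S100A8 call follow from the settings themselves, since a higher floor raises its empty vector level and the other setting removes its measured probe set. No paired analysis was possible because each group held 1 array. The empty vector level of S100A8, 1.03 times the floor, limits how far the size of its ratio can be relied on. The protein sequences of the members were not analysed here.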

Other observations

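S100PBP, which encodes a nuclear protein that binds S100P and is itself no S100 protein, was looked up after the other values were seen. Its probe sets had levels of 572 and 503 (a log2 ratio of -0.19) and of 197 and 177 (-0.15), each with the empty vector array first. S100P itself had -0.25, so the gene and its binding partner both differed by less than 1 SD (0.29) between probe sets of the same gene.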
